A study of Mus musculus with 10 samples.

Results

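The genes of the excitation-contraction coupling triad were followed as 10 listed symbols: Cacna1s, Cacnb1, Cacna2d1 and Cacng1, which encode subunits of the skeletal muscle voltage-gated calcium channel, Stac3, Ryr1, Jph1, Jph2, Trdn and Bin1. They were found by symbol after the transcript segments of the count table had been assigned to genes. All 10 were among the 21098 genes of the table, 6 held at least 1 count, and 5 passed the filter on low counts that left 7813 genes to test.

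The triad is the junction at which a transverse tubule of the muscle fiber meets the terminal cisternae of the sarcoplasmic reticulum on both sides. Depolarization of the tubule moves the voltage sensor, the channel built on Cacna1s, and in skeletal muscle this movement opens the ryanodine receptor Ryr1 by mechanical coupling, so that stored calcium reaches the myofilaments. Junctophilins hold the membranes together, triadin ties Ryr1 to the calcium store, and Bin1 helps to shape the tubules.

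The study asked what inhibition of the microRNA miR-22 does to skeletal muscle in obesity. RNA was taken from gastrocnemius (GAS) of male C57BL/6J mice of wild-type genotype that had been made obese by a high-fat diet (HFD, D12492i), a model called diet-induced obesity (DIO). The diet began at an age of 9 weeks and had run for 9 weeks when weekly subcutaneous injections started, and it went on through the 14 weeks of injections. Body weights were not analysed here, and their part in the results was not tested. The mice received either the anti-miR-22 antisense oligonucleotide (ASO, given in the labels as RES-010) at 10 mg/kg or a matched volume of 0.9% saline (CTRL), and each group has 5 libraries. The ages and durations in the labels add up to 32 weeks, whereas the design text gives 30 weeks at the end. The control was saline and not an oligonucleotide of another sequence, so effects of inhibiting miR-22 and effects of carrying an oligonucleotide cannot be told apart. Whole muscle was sequenced, in which fewer cells of a type and less RNA per cell cannot be told apart either. Mature miR-22 is not a polyadenylated transcript and was not measured in these libraries, so the labels were not checked against the target.

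The labels give the target as miR-22 without its arm. The mature 3p arm, as RefSeq gives it (table on GRCm38.p6), is shown with its seed, bases 2 to 8, in capitals, because a match to the seed in a 3′UTR is what marks a possible target.
mmu-miR-22-3p: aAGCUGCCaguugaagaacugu
Matches to the seed (GGCAGCT in the transcript strand) were looked for in the longest 3′UTR, stop codon included, of the coding transcripts of each gene on GRCm39. Of the 10 triad genes, Ryr1 and Bin1 held 1 match each, and the other 8 held 0. Over all 21540 coding genes with an annotated 3′UTR, 16.3% held a match, and over the tested genes 21.7% did. The match of Ryr1 lies in its 117-base 3′UTR at chr7:28702818-28702824 (GRCm39, minus strand) and is shown with its flanking bases, the match in capitals.
Ryr1 3′UTR site: cgagctcctccccaGGCAGCTg
No A follows this match, and the segments that hold it had 0 counts. None of the 5 tested triad genes had a match, which says only that these 7 letters are not in the annotated 3′UTR searched.

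Which triad genes could be measured was set by the count table. The authors counted read pairs on segments of up to 500 bp at the 3′ end of each transcript's 3′UTR, and bases shared by segments of different transcripts carried next to no counts in the table. Ryr1, the calcium release channel, is represented by 2 identical segments of 114 bp and had 0 bases held by 1 segment alone. Jph2, a junctophilin, had 2 identical segments of 500 bp, and Bin1 had 5 overlapping segments. These 3 genes had 0 countable bases and 0 counts in all 10 libraries. Stac3, the adaptor that the voltage sensor needs to couple to Ryr1, had 8 countable bases and 0 counts. In the whole table, 1756 genes (8.32%) had 0 countable bases and together held 36 counts, so no upper limit on the level of these 4 triad genes follows from their zeros.

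**Figure D1:**
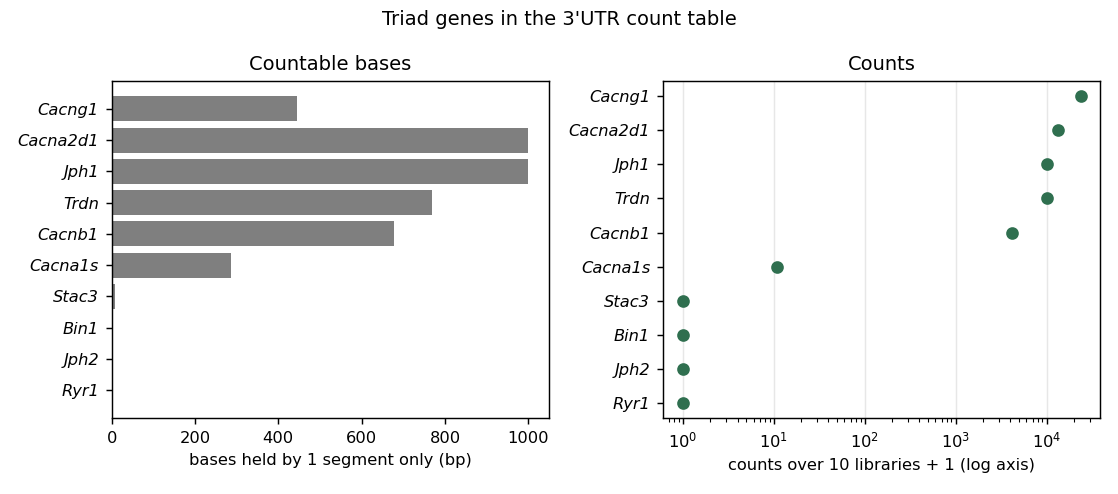
Bases held by 1 segment only in bp (left, bars) and total counts over the 10 libraries plus 1 on a log axis (right, points) for the 10 triad genes. The 4 genes with 8 or fewer countable bases have 0 counts, Cacna1s has 10, and the other 5 have 4144 to 23606.

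Cacna1s, the pore-forming and voltage-sensing subunit, had 287 countable bases and only 10 counts. All of these were on its most distal segment. Its other segments, of 399 to 405 bp, had 0 countable bases. The low count thus sets no upper limit on the level of the gene's other transcripts. ASO replicates 1 to 5 had 4, 0, 2, 2 and 1 counts, and CTRL replicates 1 to 5 had 1, 0, 0, 0 and 0. Only ASO replicate 1 was above a floor of 3 counts, which covers counting error only, so no fold is given and the gene was not tested.

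Of the 5 triad genes tested, Cacnb1 and Cacna2d1 were higher and Trdn was lower in ASO-treated muscle, and Cacng1 and Jph1 did not pass the threshold. Differences were tested by quasi-likelihood in edgeR, and p-values were adjusted by Benjamini-Hochberg over all 7813 genes, with 0.05 as the threshold. Levels are given as CPM, the counts of a library scaled to its size after correction by the trimmed mean of M-values (TMM). Over all genes tested, 11.8% were called higher and 17.4% lower. Cacnb1 was the member of these 5 whose groups did not overlap, in the direction of higher with ASO, where 7.97% of all genes had that pattern and 13.4% had the opposite. The median log2 fold change of the 5 was 0.56 beside −0.03 for all genes tested.

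Cacnb1 encodes the β1 subunit, an intracellular partner of the pore subunit that is needed to bring the channel to the triad. It was read on its transcripts with 597 and 477 codons. Those with 524 and 479 codons had 0 countable bases, so any change in them could not be seen. Which transcript makes the subunit of the triad was not tested. Cacnb1 levels were 310.5, 231, 251, 179 and 298 CPM in ASO replicates 1 to 5, and 93.9, 171, 102, 146 and 158 CPM in CTRL replicates 1 to 5. Every ASO library was above every CTRL library, with ASO replicate 4 and CTRL replicate 2 closest to each other. The mean rose from 134 ± 34.4 to 254 ± 53.2 CPM (SD, n = 5 each), a 1.89-fold difference and a log2 fold change of 0.92 with a standard error (SE) of 0.21 (adjusted p = 0.0059, edgeR). Its adjusted p stayed between 0.0029 and 0.015 when any library was left out.

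Cacna2d1 encodes the α2δ1 subunit, the extracellular, membrane-anchored part of the channel. It was read on its transcripts with 1084 and 100 codons, and those with 1079, 1086, 1091 and 1103 codons had 0 countable bases. In ASO replicates 1 to 5 it was measured at 895, 714, 949, 491 and 871 CPM, and in CTRL replicates 1 to 5 at 537, 683, 327, 407 and 417 CPM. All ASO libraries but replicate 4 lay above every control, and ASO replicate 4 was within the control range. The mean rose from 474 ± 139 to 784 ± 185 CPM (SD, n = 5 each), 1.65-fold, with a log2 fold change of 0.73 ± 0.23 (SE, adjusted p = 0.029, edgeR). This call was lost on leaving out ASO replicate 1, 3 or 5 or CTRL replicate 3, 4 or 5 (adjusted p between 0.058 and 0.076, edgeR), and with scaling by total counts alone, where the log2 fold change was 0.54 (adjusted p = 0.053) and the median of all genes shifted by −0.18. It was also lost in the fit on distal segments alone (log2 fold change 0.50, adjusted p = 0.11, edgeR), although the distal segment held 99.4% of its counts. In that fit Cacng1, with all its counts on 1 segment, was lower as well, at 0.34 beside 0.56 in the main fit. In a fit on all 10652 tested segments, the distal segment of Cacna2d1 was called higher (log2 fold change 0.77 ± 0.23, SE, adjusted p = 0.016, edgeR).

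Cacng1 encodes the γ1 subunit, the membrane-spanning subunit found mainly in skeletal muscle. It had 1294, 1398, 1391, 907 and 1592 CPM in ASO replicates 1 to 5, and 848, 1282, 620.1, 754 and 964 CPM in CTRL replicates 1 to 5. The groups overlapped through ASO replicate 4, which was low, and CTRL replicate 2, which was high. The means were 1316 ± 253 CPM in the ASO group and 894 ± 251 CPM in the CTRL group (n = 5 each, SD). The log2 fold change was 0.56 ± 0.21 (SE, adjusted p = 0.061, edgeR). DESeq2, the tool the authors used, gave 0.60 with an adjusted p of 0.030, upper quartile scaling gave 0.64 (adjusted p = 0.038), and the fit without CTRL replicate 2 gave 0.73 (adjusted p = 0.018). The side of the threshold on which Cacng1 fell thus differed between settings.

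Jph1 encodes junctophilin 1, a junctophilin of skeletal muscle that bridges the tubule and reticulum membranes. The ASO libraries had 516, 692, 798, 380.3 and 405 CPM in replicates 1 to 5, and the CTRL libraries 401, 578, 281, 334 and 358 CPM. Only ASO replicates 2 and 3 lay above all controls, and the ASO group was the more spread. The means were 558 ± 182 CPM in the ASO group and 390.4 ± 113 CPM in the CTRL group (n = 5 each, SD). The log2 fold change was 0.52 ± 0.24 (SE, adjusted p = 0.13, edgeR), and without CTRL replicate 2 it was 0.70 (adjusted p = 0.043).

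Trdn encodes triadin, which links Ryr1 to calsequestrin in the terminal cisternae, and of the tested triad genes it was the 1 that fell. ASO replicates 1 to 5 had 410.4, 503, 280.0, 273 and 312 CPM, and CTRL replicates 1 to 5 had 565, 825, 410.1, 639 and 706 CPM. ASO replicates 3, 4 and 5 were below all controls, and ASO replicates 1 and 2 were above CTRL replicate 3. The mean fell from 629 ± 155 to 355 ± 98.9 CPM (SD, n = 5 each), 1.77-fold lower, with a log2 fold change of −0.82 ± 0.22 (SE, adjusted p = 0.014, edgeR). The call held without any of the 10 libraries, with an adjusted p between 0.0056 and 0.046.

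**Figure D2:**
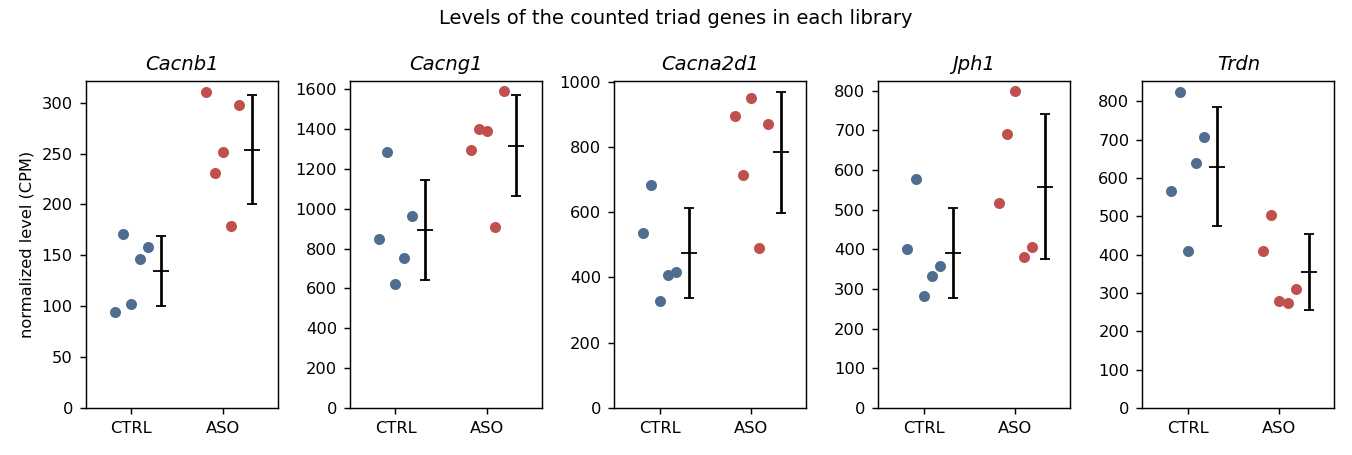
Normalized level in CPM of the 5 tested triad genes in each library, with CTRL points on the left, ASO points on the right and the mean ± SD (n = 5) beside each group. For Cacnb1 the ASO points, from 179 to 310.5 CPM, all lie above the CTRL points, and for Trdn the ASO mean of 355 CPM is below the CTRL mean of 629 CPM.

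The same libraries were high or low for most of these genes. ASO replicate 4 was the lowest ASO library for all 5 tested triad genes, and CTRL replicate 2 was the highest CTRL library for all 5. CTRL replicate 3 was the lowest control for Cacng1, Cacna2d1, Jph1 and Trdn, whereas CTRL replicate 1 was the lowest for Cacnb1.

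Markers of the cell types in the muscle were read beside these values. The summed level of 8 fiber markers was 80677 to 117982 CPM with ASO and 38940 to 75716 CPM in CTRL, without overlap. Most of this sum was Acta1 (means 59136 CPM with ASO and 39783 CPM in CTRL) and Ckm (36672 and 19251 CPM). Of the 3 fiber markers tested Ckm rose with a log2 fold change of 0.93. Acta1 (0.57, adjusted p = 0.058, edgeR) and Pvalb (0.46, adjusted p = 0.19) did not pass. The defining markers Mylpf, Tnnt3 and Mb stood at 0 counts, and Tnni2 and Des had 4 and 35 counts over the 10 libraries. Macrophage markers summed to 35.8 to 239 CPM with ASO and 125 to 766 CPM in CTRL, with Mrc1 lower among 5 tested and Adgre1 at 0. Adipocyte markers reached 714 to 3619 CPM with ASO and 843 to 13266 CPM in CTRL, and 0 of 5 tested passed. Fibroblast markers ranged from 70.7 to 469 CPM with ASO and from 247 to 489 CPM in CTRL, with Lum lower among 4 tested and Dcn at 0. Endothelial markers (141 to 317 against 137 to 254 CPM, 0 of 4 tested called), smooth muscle markers (102 to 336 against 65.8 to 184 CPM, Acta2 higher among 3 tested, Smtn at 0) and nerve markers (39.6 to 541 against 78.8 to 164 CPM, 0 of 4 tested called) overlapped between the groups. ASO replicate 4 had the lowest fiber sum of its group and the highest endothelial, macrophage, fibroblast, smooth muscle and nerve sums, and CTRL replicate 3 had the lowest fiber sum and the highest macrophage, adipocyte, fibroblast and nerve sums of the controls. The part of these differences in the triad results was not tested. Total counts were 2238864 to 2632214 per ASO library and 1606491 to 2116297 per CTRL library, so depth separated the groups as well, and with every library drawn down to the shallowest total Cacnb1, Cacna2d1 and Trdn had log2 fold changes of 0.92, 0.72 and −0.81, all called.

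Compared per length, on the CPM per kb of each gene's main segment, the order of the tested triad genes changed between the groups. In CTRL the level was highest for Cacng1 at 2004 ± 563 CPM per kb, followed by Trdn at 1239 ± 309, Cacna2d1 at 943 ± 276, Jph1 at 780.2 ± 227 and Cacnb1 at 223 ± 56.7 (SD, n = 5). With ASO it was Cacng1 at 2952 ± 568 CPM per kb, Cacna2d1 at 1559 ± 369, Jph1 at 1116 ± 364, Trdn at 695 ± 196 and Cacnb1 at 492 ± 104 (SD, n = 5). Neighbours in these orders overlapped within 1 SD, except Jph1 and Cacnb1 in CTRL and Cacng1 and Cacna2d1 with ASO. Within libraries, Cacng1 was above the other 4 and Cacnb1 below them in 10 of 10, and Cacna2d1 was above Jph1 in 10 of 10. Trdn stood above Cacna2d1 and Jph1 in 5 of 5 CTRL libraries and below both in 5 of 5 ASO libraries.

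Ratios of counts within a library do not depend on the scaling between libraries, and those of Trdn to the 4 other tested triad genes did not overlap between the groups. The pairs planned for this comparison each needed Ryr1, Cacna1s, Jph2 or Stac3 and could not be computed, so the pairs given were chosen after the values were seen and carry no test. The log2 ratio of Trdn to Jph1 was −0.33, −0.46, −1.51, −0.48 and −0.38 in ASO replicates 1 to 5, and 0.50, 0.51, 0.54, 0.94 and 0.98 in CTRL replicates 1 to 5. The groups did not overlap, and the sign differed. Of all other genes, 12.2% had a ratio to Jph1 that was lower with ASO without overlap.

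The ratios of Trdn to the channel subunits were also lower with ASO without overlap. The log2 ratio of Trdn to Cacng1 was −2.35 to −1.48 with ASO and −0.64 to −0.24 in CTRL, a pattern that 16.2% of other genes showed against Cacng1. For Trdn to Cacna2d1 the ranges were −1.76 to −0.51 and 0.07 to 0.76, with 18.2% of other genes alike, and for Trdn to Cacnb1 they were 0.06 to 1.12 and 2.003 to 2.59, with 36.5% alike. Among the 4 other tested triad genes, the ratios of Cacnb1 to Cacng1, Cacna2d1 to Cacng1, Cacnb1 to Cacna2d1 and Jph1 to Cacng1 overlapped between the groups, with differences of the mean log2 ratio between −0.079 and 0.35.

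**Figure D3:**
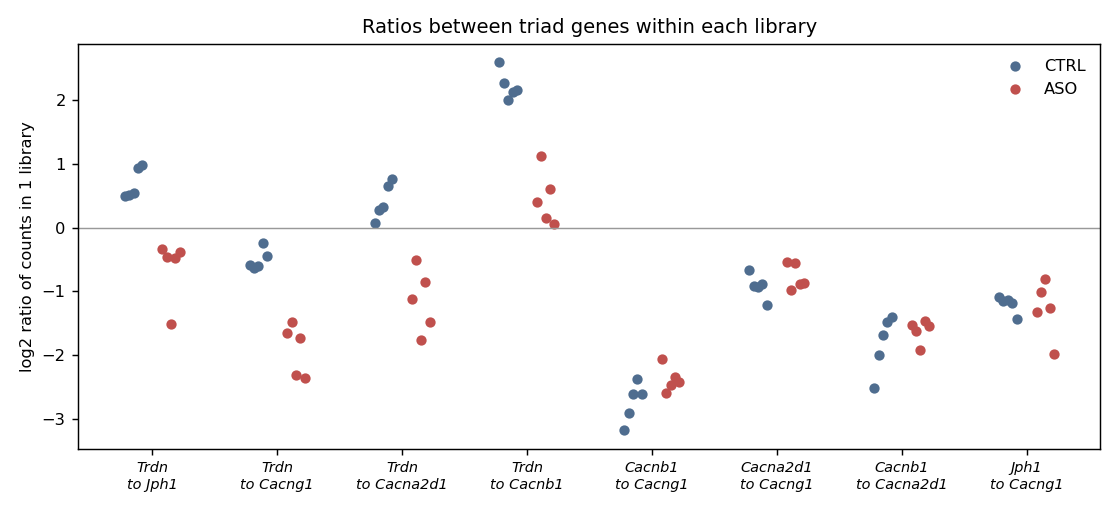
Log2 ratio of counts of pairs of triad genes within each library, with CTRL points on the left and ASO points on the right of each pair. The 4 ratios of Trdn do not overlap between the groups (for Jph1, −1.51 to −0.33 with ASO and 0.50 to 0.98 in CTRL), and the 4 ratios among the other genes do.

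The counts of Cacnb1 came from segments of different transcripts, which moved in opposite directions. The most distal segment, on the minus strand of chromosome 11 at 97892334 to 97892833 (GRCm39), belongs to a transcript with 597 codons and held 92.5% of the counts. Its level was 302, 223, 239, 174 and 290.5 CPM in ASO replicates 1 to 5 and 84.9, 148, 80.5, 123 and 122 CPM in CTRL replicates 1 to 5. Every ASO library was above every control, and in a fit on all 10652 tested segments the log2 fold change was 1.18 ± 0.21 (SE, adjusted p = 7.1e-04, edgeR).

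The other counted segment of Cacnb1 lies 3239 bp upstream, at 97895573 to 97895846, is 274 bp long with 178 bases of its own, and belongs to a transcript with 477 codons. It held 18, 19, 28, 11 and 16 counts in ASO replicates 1 to 5 and 19, 50, 44, 40 and 65 counts in CTRL replicates 1 to 5, even though the ASO libraries were deeper. Its log2 fold change was −1.44 ± 0.35 (SE, adjusted p = 0.0057, edgeR), from means of 8.15 ± 2.596 CPM in the ASO group and 22.8 ± 9.77 CPM in the CTRL group (n = 5 each, SD). In the segment fit, 16.0% of segments were called higher and 24.7% lower. The transcripts of Cacnb1 with 524 and 479 codons had 0 countable bases and are not represented.

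As a share of the counts of Cacnb1, the upstream segment took 3.22% ± 0.92 with ASO and 16.7% ± 5.52 in CTRL (SD, n = 5 each), with ranges of 2.53% to 4.71% and 9.55% to 23.0%. The log2 ratio of upstream to distal counts, with 0.5 added to each, was lower by 2.54 with ASO (p = 0.0079 by an exact permutation test, two-sided, which is the lowest value that 252 labellings allow, and adjusted p = 0.016 over 1885 genes). This was also the direction of the table as a whole: of 1885 genes with at least 50 counts on each side and 1000 bp between them, 48.4% had a lower upstream share with ASO without overlap and 1.06% a higher one, and the median difference was −1.29. Of these genes, 13.6% had a lower value than Cacnb1. The part of this common direction in the rise of Cacnb1, read mostly on its distal segment, was not tested.

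Trdn did not follow that direction. Its most distal segment, on the plus strand of chromosome 10 at 33352206 to 33352705, belongs to a transcript with 693 codons and held 98.2% of its counts. The shorter transcripts, with 277, 293 and 305 codons, end 242717 to 280392 bp upstream and held 81, 99 and 1 counts. The distal segment had a log2 fold change of −0.80 ± 0.22 (SE, adjusted p = 0.011, edgeR). The segment of the transcript with 293 codons had 0.51 ± 0.31 (SE, adjusted p = 0.22), with 15, 11, 11, 10 and 14 counts in ASO replicates 1 to 5 and 10, 7, 4, 9 and 8 in CTRL replicates 1 to 5. The segment of the transcript with 277 codons went the other way, with 7, 7, 5, 4 and 7 counts in the ASO libraries and 9, 10, 10, 7 and 15 in the CTRL libraries, and was not tested. It took 0.748% of Trdn counts with ASO and 0.831% in CTRL, and the 293-codon segment took 1.52% and 0.619%, so a higher upstream share with ASO was seen only in the latter.

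The upstream segments of Trdn took 2.59%, 1.52%, 2.42%, 2.14% and 3.18% of its counts in ASO replicates 1 to 5, and 1.59%, 0.961%, 1.81%, 1.48% and 1.83% in CTRL replicates 1 to 5. All ASO libraries but replicate 2 were above all controls. The log2 ratio of upstream to distal counts was higher by 0.64 with ASO (exact permutation test, two-sided, p = 0.040, adjusted p = 0.059 over 1885 genes), on 14 to 23 upstream counts per library, and 96.2% of the genes compared had a lower value. Cacna2d1, with 99.4% of its counts on the segment at 16579003 to 16579502 of chromosome 5 (plus strand), had an upstream share of 0.583% ± 0.21 with ASO and 0.546% ± 0.22 in CTRL (SD, n = 5 each). These shares leave out its transcripts with 0 countable bases.

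**Figure D4:**
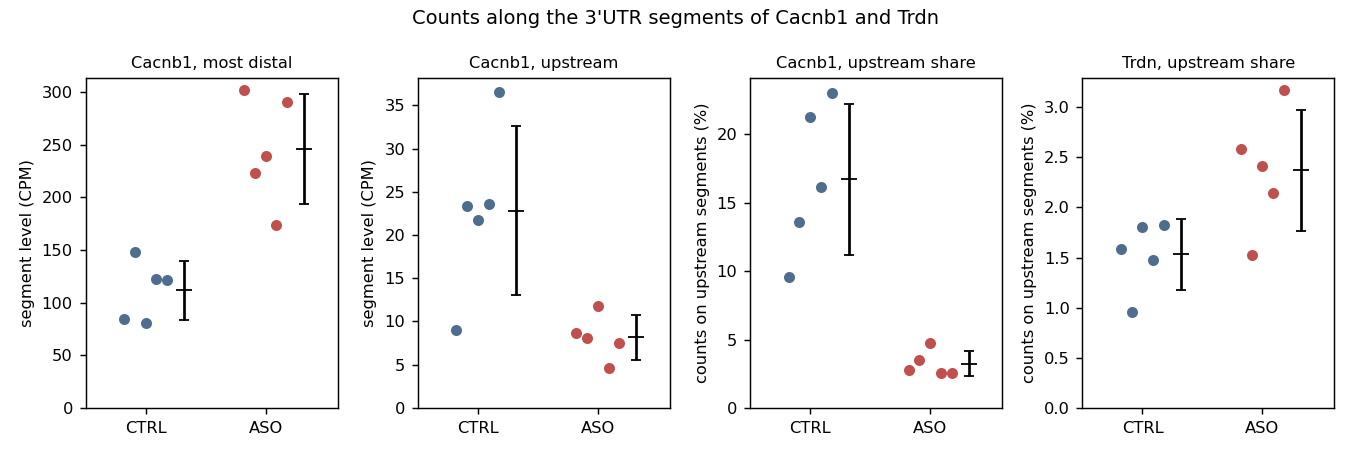
Level in CPM of the most distal and the upstream segment of Cacnb1 (the panels on the left) and the percentage of counts on upstream segments for Cacnb1 and Trdn (the panels on the right) in each library, with the mean ± SD (n = 5) beside each group. For Cacnb1 the share is 3.22% with ASO and 16.7% in CTRL, and for Trdn it is 2.37% and 1.53%.

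The remaining tested triad genes were read almost wholly from 1 segment each. All 23606 counts of Cacng1 were on its segment of 446 bp at 107594044 to 107594489 of chromosome 11 (minus strand), for which the segment fit gave a log2 fold change of 0.60 ± 0.21 (SE, adjusted p = 0.035, edgeR). For Jph1, 99.9% of the counts were on the segment at 17065162 to 17065661 of chromosome 1 (minus strand), with 0.56 ± 0.24 (SE, adjusted p = 0.083) in that fit. No segment of a triad gene overlapped a segment of another gene on either strand.

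Around the triad, 16 partners of calcium storage and release were listed, of which 15 were tested. Hrc and Jsrp1 rose, Asph, Tmem38b and Calm2 fell, and 10 did not pass. The median log2 fold change was 0.051 beside −0.03 for all genes tested, of which 11.8% were called higher and 17.4% lower.

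Hrc, a calcium-binding protein of the reticulum lumen that binds triadin, was at 1072, 929, 1340.3, 1046 and 1386 CPM in ASO replicates 1 to 5 and at 775, 820.3, 417, 598 and 537 CPM in CTRL replicates 1 to 5. The groups did not overlap, and the log2 fold change was 0.88 ± 0.20 (SE, adjusted p = 0.0065, edgeR). Jsrp1, a junctional reticulum protein that binds the channel, rose by 0.54 ± 0.17 (SE, adjusted p = 0.033), also without overlap, at 2315 to 3463 CPM with ASO and 1308 to 2100.3 CPM in CTRL. Tmem38b, a counter-ion channel of the reticulum, had a log2 fold change of −0.89 ± 0.24 (SE, adjusted p = 0.015), Asph, whose locus also encodes junctin, −0.46 ± 0.15 (adjusted p = 0.033), and the calmodulin gene Calm2 −0.49 ± 0.16 (adjusted p = 0.038). Without 1 library the call of Asph was lost in 9 of 10 fits (adjusted p up to 0.092, edgeR), that of Calm2 in 7 of 10 (up to 0.10) and that of Jsrp1 in 5 of 10 (up to 0.078), whereas Hrc and Tmem38b kept theirs in all 10. Casq1, the calsequestrin of fast fibers that triadin binds, had 5636 to 10383 CPM with ASO and 5561 to 8817 CPM in CTRL, with a log2 fold change of 0.12 (adjusted p = 0.70), and Casq2 had 0 counts. Casq1 was chosen for mention after its values were seen. Calm2 held 28.5% of its counts on the most distal segment, and with distal segments alone its log2 fold change was 0.075.

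Of 11 genes of the tubule and its membranes, 8 were tested, with Cav3 higher, Stim1, Dnm2 and Mtmr14 lower, and a median log2 fold change of −0.16. Among all genes tested, 11.8% were called higher and 17.4% lower. Cav3, the muscle caveolin, was at 347 to 476 CPM with ASO and 129 to 220.2 CPM in CTRL, with a log2 fold change of 1.22 ± 0.17 (SE, adjusted p = 4.4e-04, edgeR).

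Stim1, the calcium sensor of store-operated entry, fell from 414 ± 105 to 95.8 ± 29.0 CPM (SD, n = 5 each), with a log2 fold change of −2.11 ± 0.23 (SE, adjusted p = 1.4e-04, edgeR). Dnm2, a dynamin that acts with Bin1 on membranes, had −2.11 ± 0.39 (SE, adjusted p = 0.0022), and the lipid phosphatase Mtmr14 −0.68 ± 0.24 (SE, adjusted p = 0.046). The counts of these 3 genes lay mostly upstream, with 0.516% of Stim1, 13.6% of Dnm2 and 0.172% of Mtmr14 counts on the most distal segment. These were too few for any of the 3 to be tested on distal segments alone. For Dnm2 they were 7, 7, 5, 7 and 5 counts in ASO replicates 1 to 5 and 2, 2, 5, 5 and 5 in CTRL replicates 1 to 5. The fall of Dnm2 was thus read on its upstream segment. Its log2 ratio of upstream to distal counts differed by −3.20 with ASO, without overlap. A lower upstream share with ASO without overlap was also found in 48.4% of 1885 genes. The part of this direction in the falls of these 3 genes was not tested. The call of Mtmr14 was lost in 8 of the 11 other alternatives that tested it, DESeq2 among them (adjusted p = 0.066), and in 7 of 10 fits without a library (adjusted p up to 0.12, edgeR). The remaining tested genes, Speg, Orai1, Rem1 and Rrad, did not pass, and the largest log2 fold change of these was that of Rrad, a small GTPase that binds channel β subunits, at 1.40 ± 0.57 (SE, adjusted p = 0.081, edgeR). Mtm1 and Dysf had 0 counts, and Sypl2 had 91 and was not tested.

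**Figure D5:**
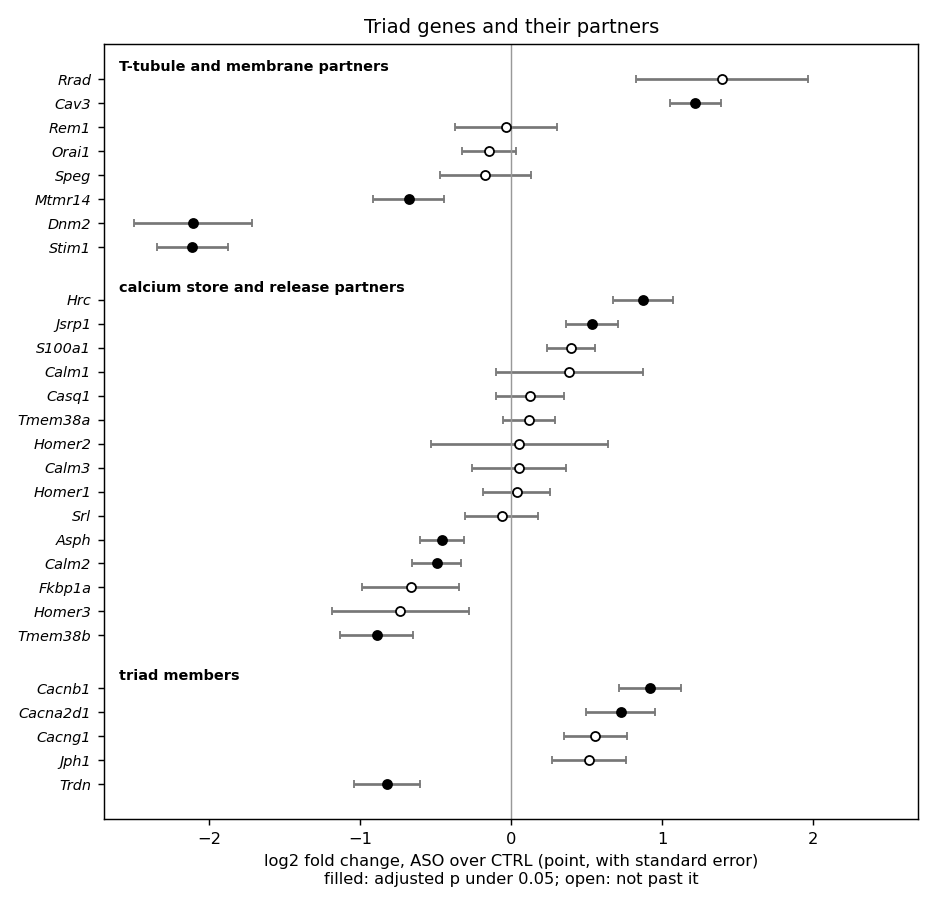
Log2 fold change, ASO over CTRL, with its standard error for the tested triad genes and for their partners of calcium storage and release and of the tubule membrane. Filled points passed an adjusted p of 0.05: 2 higher and 1 lower of 5 triad genes, 2 and 3 of 15, and 1 and 3 of 8. Among all genes tested, 11.8% were called higher and 17.4% lower.

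The paralogues outside the skeletal triad held few counts, apart from Cacng6. Of 15 listed, 4 had 0 counts, 10 had 7 to 51 counts over the 10 libraries and were not tested, and Cacng6, another γ subunit of skeletal muscle, had a log2 fold change of 0.04 (adjusted p = 0.86, edgeR). Countable bases are given only for the triad genes, so these low counts do not show that the paralogues were little expressed. The same holds for Casq2, Mtm1, Dysf and the cell markers with 0 counts.

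Genes with the most similar profiles were looked for by the root mean square difference of log2(CPM + 1), centred on each gene's mean over the 10 libraries, among 7812 genes. For Cacng1, which had the highest mean level of the triad genes, they were Ppm1l at 0.112, 4930453N24Rik at 0.120 and Tab2 at 0.131. For Cacnb1, which had the smallest adjusted p, they were Atn1 at 0.147, Popdc2 at 0.151 and Atp2a1, the calcium pump of fast fibers, at 0.174. Among the triad genes, Cacna2d1 was the closest to Cacng1 at 0.194 and Trdn the farthest at 0.752.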

How the data were processed

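GAS RNA of 5 ASO-treated and 5 CTRL DIO mice was sequenced as stranded mRNA libraries. The authors deposited raw counts per transcript 3′UTR segment, made with fastp, STAR on GRCm39 and featureCounts on read pairs with Gencode M25; the strand option is not given in the sources used here. Another 4 per-sample columns were not used. Here, 52361 of 52423 segment identifiers were found in GENCODE M39 (the 62 others hold 0.0197% of counts) and summed per gene. The depth was 1606491 to 2632214 counts per library; intervals and floors cover counting error only.

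The test was run in R 4.3.3 with edgeR 4.0.16 (TMM, filterByExpr, quasi-likelihood test, Benjamini-Hochberg adjustment over all tested genes); limma 3.58.1 (voom) and DESeq2 1.42.0, which the authors used, were alternatives, as were other scalings, filters, segment choices, depth, the replicate block and leaving out each library. In simulated ASO and CTRL libraries, edgeR recovered 138 of 187 changed genes among 7705, with 2 false calls: 48 changed by 1 and 90 by 2 on the log2 scale. The simulation gave all genes a common spread and balanced changes between higher and lower, so it does not give the error rate in these data. Segment use and ratios were computed in Python 3.11.15 with pandas 2.3.3, numpy 2.4.6 and scipy 1.17.1, and drawn with matplotlib 3.10.9. Named were all triad genes, up to 8 called genes of each partner list by adjusted p, and the 3 nearest profiles; others were named after their values were seen, and 1 further gene chosen for the tubule list was left out of the analysis and is not reported here. The triad genes, partner lists and cell markers (fiber, endothelial, macrophage, adipocyte, fibroblast, smooth muscle, nerve) were chosen with earlier results of these data known. The labels do not say that libraries come from separate mice beyond numbering them, so p-values measure the spread between these samples.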

Additional observations from a re-analysis of the deposited data

Results flagged for a closer look

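Among 50 groups of 5 libraries checked for a library far from the others (Dixon's gap over range above 0.71), 2 were found, and chance gives about 1 in 20. The log2 ratio of Trdn to Jph1 was −1.51 in ASO replicate 3, below −0.48 to −0.33 in the other ASO libraries. The log2 ratio of Jph1 to Cacng1 was −1.43 in CTRL replicate 5, below −1.18 to −1.08 in the other controls.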

How the results depend on the processing

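Under the 22 alternatives, Cacnb1 stayed higher and Trdn lower past the threshold in every fit, with log2 fold changes of 0.73 to 1.05 and −1.05 to −0.70. The count of triad genes called higher, 2 at first, was 1 with total counts only and with the most distal segment only, 3 with upper quartile scaling, DESeq2, without the 20 highest genes and on segments without overlap with another gene, and 1 to 4 on leaving out a library (4 without CTRL replicate 2), and 1 was called lower throughout. For calcium store and release partners, the 2 called higher became 1 with total counts only and without a filter. The same count came with the most distal segment only and with the replicate block. They became 3 with upper quartile scaling and DESeq2, and 1 to 3 without a library. The 3 called lower became 1 with upper quartile scaling and without a filter, and 0 with the replicate block. They became 2 with scaling by relative log expression (RLE) and without the 20 highest genes. The count was also 2 with the most distal segment only and on segments without overlap with another gene. Without a library it was 1 to 3. For tubule and membrane partners, the 1 called higher became 2 without a filter, 3 with DESeq2, and 1 to 2 without a library. The 3 called lower became 0 with the most distal segment only, where none of them had enough counts to be tested. They stayed 3 with total counts only and with every library drawn down to the shallowest. In the remaining fits on all libraries they became 2, and without a library 2 to 3. Apart from the fits without a library, the calls of Asph, Jsrp1, Calm2 and Mtmr14 were lost in 3, 4, 6 and 8 alternatives, beside the change of sign of Calm2. Tmem38b lost its call in 1 alternative, the replicate block (adjusted p = 0.054, edgeR). Calm2 changed sign to 0.075 with the most distal segment only, a choice that leaves out its upstream counts. The difference in segment use was −2.75 to −2.38 for Cacnb1 and 0.48 to 0.79 for Trdn without a library, and for Trdn 7 of 10 such values had a p above the threshold (0.016 to 0.079, exact permutation test); both were chosen after seeing the data. Over all genes 920 were higher and 1363 lower, against 528 and 1819 with total counts only, 1262 and 1206 with upper quartile scaling, 388 and 602 with the most distal segment only, and 662 and 1172 with the replicate block. Replicate numbers did not pair the libraries: deviations of same-numbered libraries correlated at −0.43, 0.06, 0.05, 0.06 and 0.16, and 0 of 5 correlated best with their own number. With the replicate block, Cacnb1, Cacna2d1 and Trdn had log2 fold changes of 0.93, 0.73 and −0.83 and kept their calls. Jph1 was not tested with distal segments alone, because its distal segment held 6 counts. The cause of the other changes was not tested. At this depth a level under 3 counts per library was not read.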
